A study of Homo sapiens with 12 samples.

Results

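The lysosomal gene set studied here holds 39 genes, chosen by name from a list of lysosomal enzymes, lysosomal membrane proteins, subunits of the lysosomal proton pump and the transcription factors TFEB and TFE3. The rule itself uses no measured value, but the list was drawn up with earlier results of these data known. All 39 were found among the 31911 genes with counts in the siCHD4 table and the 33154 in the siCHD3 table, and all 39 passed the filter on low counts in both. The RNA-seq libraries came from 501Mel, a human melanoma cell line, harvested 72 h after transfection of siRNA pools. The 4 groups of 3 libraries were siCHD4 (silencing of CHD4) with siCtrl replicates 1 to 3 (a control siRNA) in 1 table, and siCHD3 (silencing of CHD3) with siCtrl replicates 4 to 6 in the other. All groups share the one cell line, transfection and time point, and no siCtrl library is common to both tables. CHD4 and CHD3 are ATP-dependent chromatin remodellers found in alternative forms of the NuRD complex, which also carries histone deacetylases.

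Lysosomes are acidic compartments in which proteases, glycosidases and lipid hydrolases degrade material brought in by endocytosis and autophagy. The vacuolar H+-ATPase (V-ATPase) acidifies them, with a cytosolic V1 sector that hydrolyses ATP and a membrane V0 sector that passes protons. Many of these genes carry the CLEAR motif, an extended E-box bound by the MiT/TFE family (MITF, TFEB, TFE3, TFEC), and in pigment cells the melanosome, a lysosome-related organelle, shares much of the same machinery.

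CHD4 itself lay at 58.6 to 79.6 CPM (read counts scaled by TMM to a common library size) in the siCHD4 libraries, against 488 to 591 CPM in their siCtrl libraries, and CHD3 lay at 17.7 to 18.9 CPM in the siCHD3 libraries, against 77.4 to 96.4 CPM in theirs. The gene that was not silenced was higher in every silenced library than in every siCtrl library of its table, but no test of this is given. Over all genes tested, 16.8% were separated as higher in the siCHD4 table and 19.7% in the siCHD3 table. CHD4 lay at 525 to 589 CPM in the siCHD3 libraries, against 300 to 359 CPM in their siCtrl libraries. CHD3 lay at 140 to 165 CPM in the siCHD4 libraries, against 104 to 136 CPM in theirs, a narrow separation. The study reports no effect of CHD4 silencing on CHD3 by RT-qPCR and immunoblot. Total counts ran from 82294000 to 102005319 in the siCHD4 libraries, against 44966728 to 94946401 in siCtrl replicates 1 to 3, and from 42638568 to 57219281 in the siCHD3 libraries, against 38573214 to 49903299 in siCtrl replicates 4 to 6. Replicate 3 of siCtrl stood apart with the lowest total of its table, a TMM factor of 0.816 and 6.16% of its counts on ribosomal protein genes, so siCHD4 results whose call or direction changed without it are also given without it. The study's figure legends give 3 biological replicates where siCHD4 RNA-seq is shown. Its reporting summary gives at least 3 for the data in general. Neither the labels nor the methods describe whether the libraries of a group were grown as separate cultures. Each p-value therefore reflects variation among these libraries alone.

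Promoter sequence was examined first, because many lysosomal genes are known for the CLEAR motif. RefSeq promoters of GRCh38.p14, 250 bases before to 50 bases after the start site, matched 26 of the 39 genes. A set of 4 nested or related motifs was searched on both strands: the E-box core CACGTG, the longer TCACGTGA that contains it, the full CLEAR palindrome that contains both and is 1 base longer on each side, and the M-box TCATGTG. The core was present in 9 of the 26 promoters (34.6%), against 7.26% of all 35116 promoters and 10.1% of the 10896 promoters of genes tested in both tables. TCACGTGA was present in 6 (23.1%), against 0.98% of all promoters and 1.92% of those of genes tested in both tables. The full palindrome was present in 2 (7.69%), against 0.353% and 0.789%. TCATGTG was present in 4 (15.4%), against 2.92% and 1.82%. A match describes letters in this window and is not evidence of binding. Because lysosomal genes are already known for this motif, the higher shares are a description and not a new result. Members and genes tested in both tables were taken at 1 promoter per symbol, whereas the 35116 promoters were not.

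Among the genes that passed the test in either comparison and had a promoter in the table, LAMP1 was the only one with the core, and its promoter is printed to show how densely the matches sit. It is given 5′ to 3′, plus strand, chr13:113296989-113297258 of GRCh38.p14, from base -250 to base 20 relative to the start site, with each CACGTG core in capitals.

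LAMP1 promoter: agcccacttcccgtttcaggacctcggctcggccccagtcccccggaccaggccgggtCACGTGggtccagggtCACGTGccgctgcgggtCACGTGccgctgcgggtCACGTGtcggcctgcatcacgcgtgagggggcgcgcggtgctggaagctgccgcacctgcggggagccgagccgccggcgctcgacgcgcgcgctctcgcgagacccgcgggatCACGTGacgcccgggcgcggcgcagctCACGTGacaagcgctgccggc

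The 6 cores begin at positions -192, -176, -159, -142, -28 and -1. The first 4 repeat at short intervals upstream, and the 2 nearest the start site lie within the longer TCACGTGA. Stretches of 20 bases around the core (capitals) are shown for genes of other roles, the glycosidase GAA with 2 full palindromes, the calcium channel MCOLN1, the protease CTSA (its site nearer the start) and the V-ATPase subunit ATP6V0D1, chosen because their cores lie in the longer TCACGTGA form. All are 5′ to 3′ on the strand of the gene, with coordinates of GRCh38.p14.
GAA, chr17:80101498-80101517, plus strand: gccgcgtCACGTGacccacc
GAA, chr17:80101543-80101562, plus strand: cgccggtCACGTGacccgcc
MCOLN1, chr19:7522576-7522595, plus strand: aggcggtCACGTGaggggct
MCOLN1, chr19:7522603-7522622, plus strand: accgggtCACGTGaccgagg
CTSA, chr20:45891303-45891322, plus strand: cggagttCACGTGactcgta
ATP6V0D1, chr16:67481204-67481223, minus strand: ttatggtCACGTGaggcgct

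Both GAA sites and the second MCOLN1 site hold the full palindrome, whereas the other stretches differ from it by a base next to the TCACGTGA form. The other core holders were CLN3, whose core at -1 also lies in the TCACGTGA form, and CD63, CTSD and CTSF, which lack that form.

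**Figure D1:**
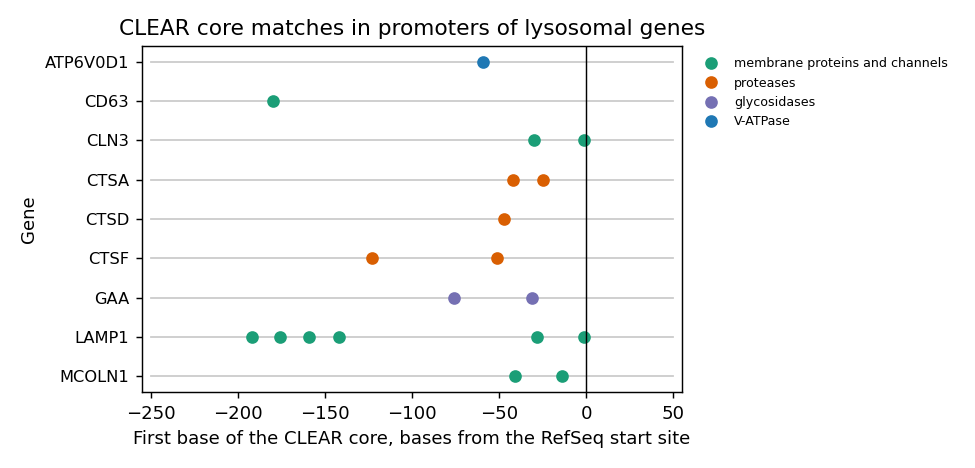
Start of each CACGTG core match in the RefSeq promoters of the 9 lysosomal genes that hold it, in bases from the start site (black line), with point colours for the role of the gene. LAMP1 has 6 matches and the other genes 1 or 2, and CD63 has its single match at -180.

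In siCtrl cells the lysosomal genes covered a wide range of levels per kb of gene length. CTSB, the cysteine protease cathepsin B, was first in both siCtrl sets, at 3282 to 3969 CPM per kb in replicates 1 to 3 and 1861 to 2057 CPM per kb in replicates 4 to 6. In replicates 1 to 3 the next genes were CD63, a tetraspanin of late endosomes and lysosomes, at 1148 to 2074 CPM per kb, PSAP, the precursor of the saposins that help sphingolipid hydrolases, at 1027 to 1169 CPM per kb, and ASAH1, acid ceramidase, at 488 to 1069 CPM per kb. CTSB stood above the ranges of all other members, whereas CD63 and PSAP, and PSAP and ASAH1, overlapped as neighbours. At the other end, CTSK (cathepsin K) lay at 0.755 to 0.834 CPM per kb in replicates 1 to 3, CTSS (cathepsin S) at 1.85 to 3.13 CPM per kb and ATP6V0C, the V0 proteolipid, at 1.5 to 15.6 CPM per kb. CTSK and CTSS did not overlap, while CTSS lay within the range of ATP6V0C. The count of ATP6V0C is uncertain, since 76.3% of its exon bases are shared with an overlapping gene of the same strand. The tables were normalised separately, so levels are compared within a table. The ranks depend on gene lengths derived from the deposited signals, such as 0.586 kb for CTSB and 1.7 kb for PSAP. Without division by length, PSAP lay above CTSB in siCtrl replicates 4 to 6, at 1420 to 1660 CPM against 1091 to 1205 CPM. CTSB lay above PSAP in each of replicates 1 to 3. The derived length of a gene could differ between the tables, as for TFE3 at 2.08 and 1.06 kb.

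**Figure D2:**
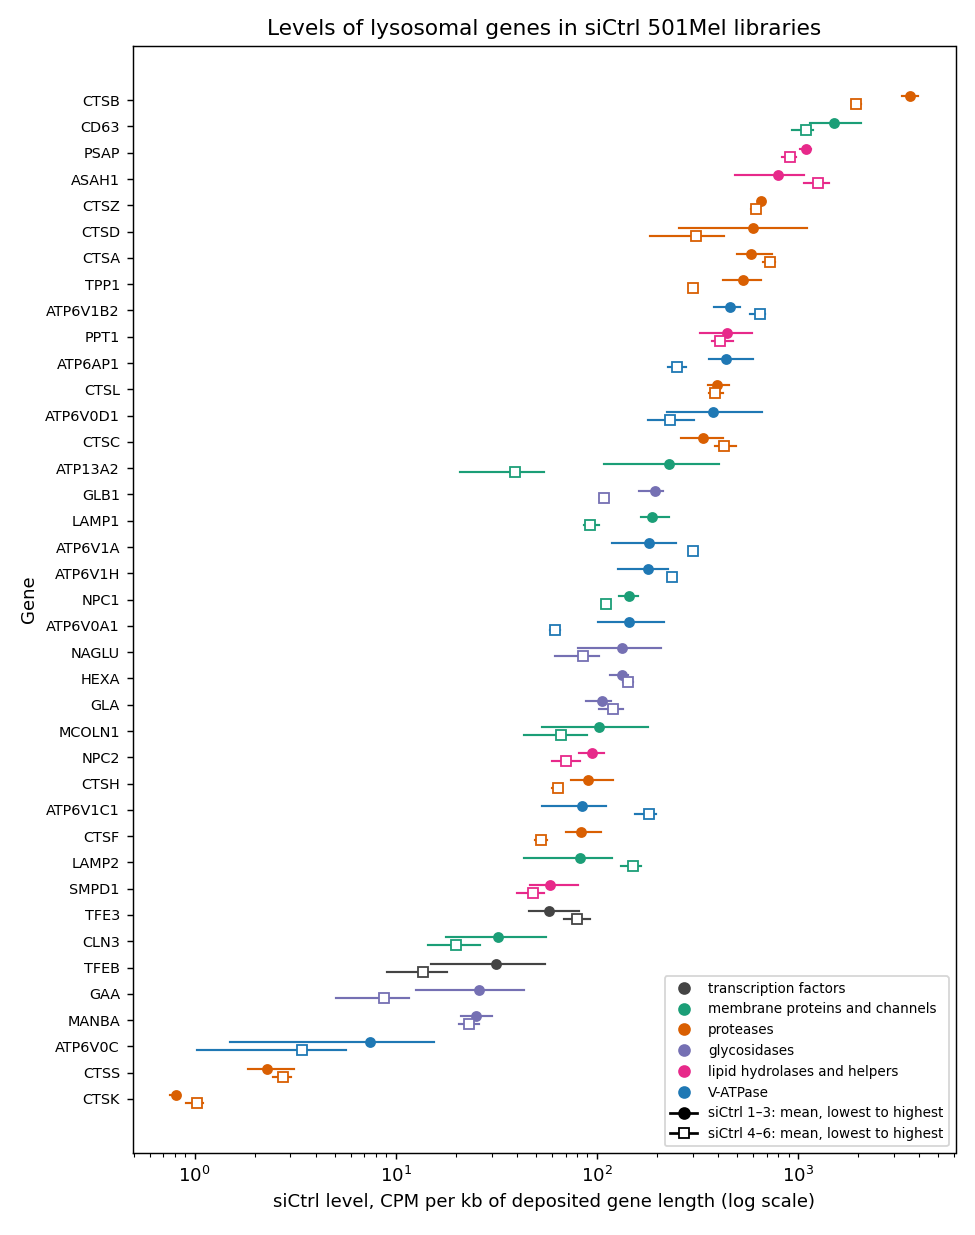
Level of each of the 39 lysosomal genes in siCtrl libraries, in CPM per kb on a log scale, for siCtrl replicates 1 to 3 (filled circles) and 4 to 6 (open squares). Gene length was derived from the deposited signals. Points lie at the mean, and lines run from the lowest to the highest library. CTSB is highest in both sets, and CTSK is lowest, at a mean of 0.808 CPM per kb in replicates 1 to 3 and 1.03 CPM per kb in replicates 4 to 6.

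The first comparison asked how the lysosomal genes responded to CHD4 silencing. CTSK and CTSZ, both cysteine cathepsins, rose, and no member fell. The 2 genes that passed (adjusted p under 0.05, edgeR quasi-likelihood test) are 5.13% of the 39, against 7.13% of the 17018 genes tested, of which 5.07% were higher and 2.06% lower. Both also passed the study's fold threshold of an absolute log2 fold change over 1, which 4.8% of all genes passed as higher. The median log2 fold change of the 39 was -0.05, against -0.06 over all genes tested, with 17 positive and 22 negative values. The siCHD4 and siCtrl libraries did not overlap for 14 genes, 7 higher and 7 lower, and over all genes tested 16.8% were separated as higher and 14.5% as lower. At an unadjusted p under 0.05, 10 of the 39 passed (25.6%), against 21.8% of all genes tested. The other 37 genes did not pass (log2 fold change -1.06 to 0.74, edgeR adjusted p 0.0849 to 0.975), and in these bulk cultures a change in RNA per cell and a change in the mixture of cells cannot be told apart.

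The count depended on single libraries. It was 14 without siCtrl replicate 3 (29.7% of all genes called), 2 without siCtrl replicate 1 (8.66%), and 1 without siCtrl replicate 2 or any 1 siCHD4 library (1.49% to 2.2%), where CTSZ was lost. A single fit over all 12 libraries gave 7 genes and the DESeq2 Wald test 5, both including CTSK and CTSZ, and they called 13.7% and 13.6% of all genes. The sign of the median also turned, to 0.13 without siCtrl replicate 3 and to 0.10 with scaling to library totals, which moved the median of all genes tested to 0.06.

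The second comparison asked the same of CHD3 silencing. A total of 9 genes passed (23.1%), against 20.3% of the 16115 genes tested, so the share of both directions together was near the background. The proteases CTSS, CTSB and CTSZ, the membrane proteins LAMP1, NPC1 and ATP13A2, the cholesterol-binding protein NPC2 and the V-ATPase subunit ATP6V0A1 rose, and the protease CTSC fell. The 8 of 39 that rose compare with 11.5% of all genes tested, and the 1 of 39 that fell with 8.81%. By direction, the share that rose was thus above that of all genes, and the share that fell below it. CTSS and ATP13A2 also passed the fold threshold, as did 3.89% of all genes in that direction. The median log2 fold change was 0.09, against -0.02 over all genes tested, with 24 positive and 15 negative values. Libraries did not overlap for 14 of the 39 as higher and 3 of the 39 as lower, against 19.7% and 17.4% of all genes tested. These shares also lay above and below those of all genes, and no test compared them. The other 30 genes had log2 fold changes of -0.42 to 0.69 (edgeR adjusted p 0.0641 to 0.999). At an unadjusted p under 0.05, 14 of the 39 passed (35.9%), against 33% of all genes tested. Only 5 genes passed without siCHD3 replicate 1, where 12.7% of all genes did, and also 5 without siCHD3 replicate 3, where 13.2% did.

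The third comparison set the responses against each other, as the log2 fold change after siCHD4 minus that after siCHD3, each against its own siCtrl libraries. The responses differed for 8 genes (20.5%), against 14% of the 17357 genes tested. CTSK and CTSZ responded higher after siCHD4, and CTSB, LAMP1, ATP13A2, GLB1, MANBA and ATP6V0A1 responded lower after siCHD4. These 2 and 6 of the 39 compare with 6.84% and 7.16% of all genes tested. The share that responded lower was thus above that of all genes and the share that responded higher below it, and no test compared them. Between the comparisons, CTSZ alone passed in both, CTSK after siCHD4 alone and 8 genes after siCHD3 alone, 29 passed in neither, and 21 of the 39 had log2 fold changes of opposite sign. These counts were not made over all genes tested, so they cannot be read as particular to the members. Leaving out 1 library gave 3 to 12 genes, with the lowest count without siCHD4 replicate 1, where 9.27% of all genes passed.

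**Figure D3:**
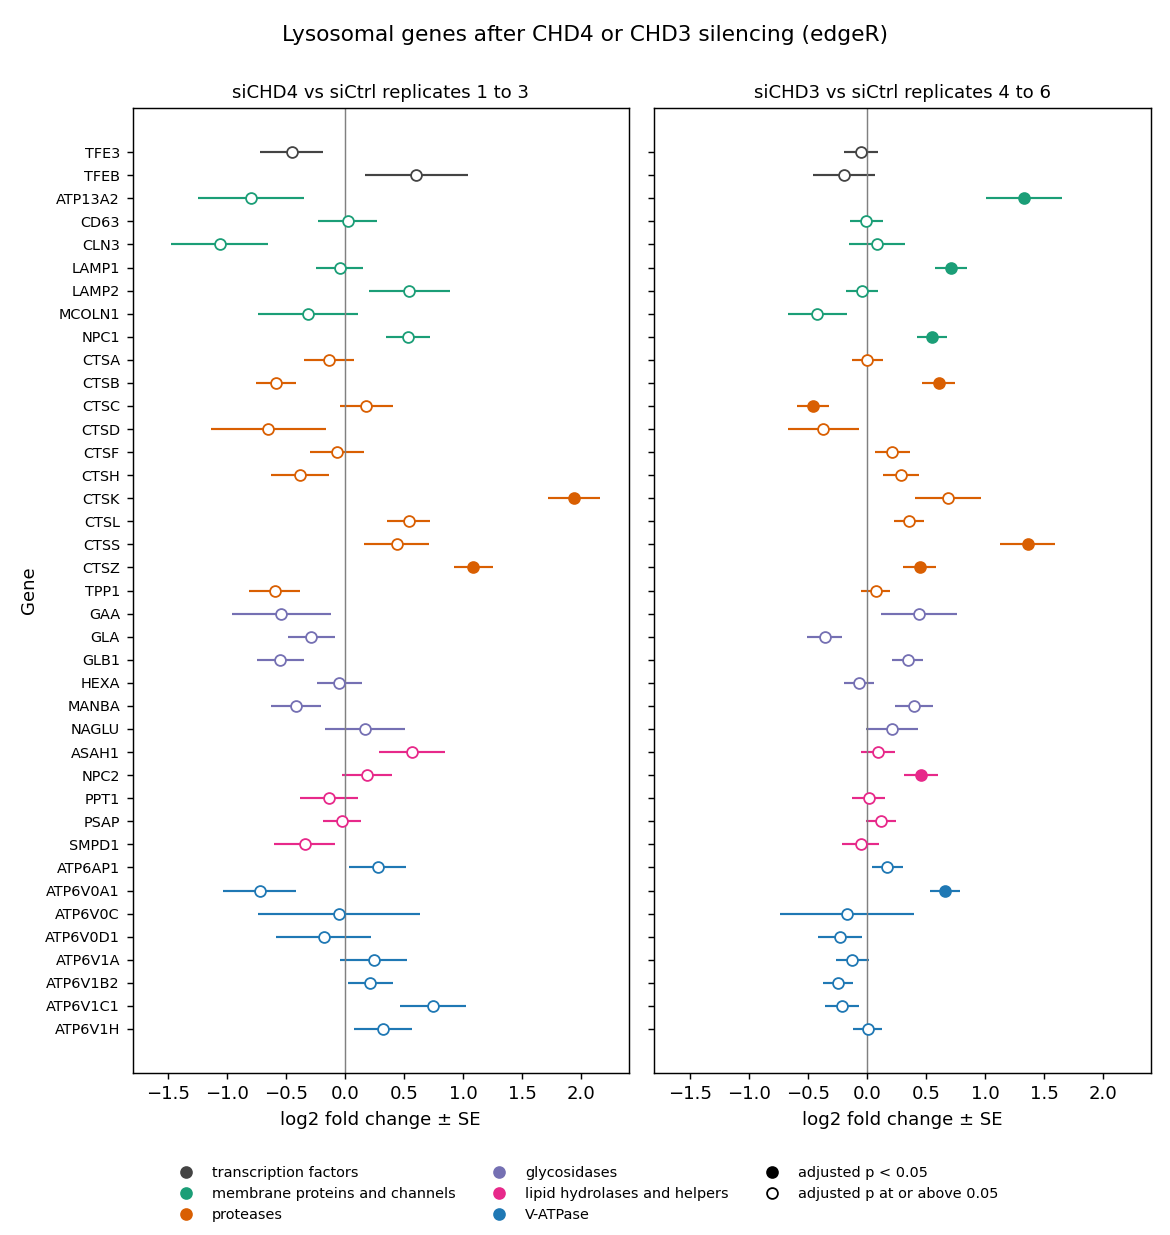
Log2 fold change ± SE (edgeR) of each of the 39 lysosomal genes after siCHD4 (left) and siCHD3 (right), each against its own siCtrl libraries, grouped by role, with filled points at an adjusted p under 0.05. The left panel has 2 filled points, CTSK at 1.94 and CTSZ at 1.09, and the right panel 9, from CTSC at -0.46 to CTSS at 1.36.

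The transcription factors TFEB and TFE3 activate lysosomal and autophagy genes when they enter the nucleus. TFEB (chr6:41651716-41703997, minus strand, GRCh37) had 50.1, 49.5 and 46.6 CPM in the siCHD4 libraries, against 15.3, 24.8 and 56.3 CPM in siCtrl replicates 1 to 3. The siCHD4 libraries lay together, while siCtrl replicate 3 lay above them and the other siCtrl libraries below (log2 fold change 0.60 ± 0.44 (SE), edgeR adjusted p = 0.479). Without siCtrl replicate 3 the change in TFEB was 1.30 ± 0.19 (SE, edgeR adjusted p = 0.000611), and it then passed the test. TFEB had 8.76, 14.1 and 13.6 CPM in the siCHD3 libraries, against 9.27, 14.1 and 18.4 CPM in siCtrl replicates 4 to 6, and the groups overlapped (log2 fold change -0.20 ± 0.26 (SE), edgeR adjusted p = 0.653). The difference between the responses of TFEB was 0.82 ± 0.55 (SE, edgeR interaction, adjusted p = 0.366), and without siCtrl replicate 3 it was 1.51 (edgeR adjusted p = 0.0224).

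TFE3 (chrX:48886237-48900936, minus strand) had 84.0, 91.9 and 88.2 CPM in the siCHD4 libraries, against 96.2, 95.5 and 170.1 CPM in siCtrl replicates 1 to 3. All siCHD4 values were lower than all siCtrl values, with siCtrl replicate 3 far above the rest (log2 fold change -0.45 ± 0.27 (SE), edgeR adjusted p = 0.379), and without that library the change was -0.10 ± 0.12 (SE, edgeR adjusted p = 0.556). After CHD3 silencing TFE3 had 79.1, 84.5 and 81.6 CPM in the siCHD3 libraries, against 73.1, 82.9 and 98.1 CPM in siCtrl replicates 4 to 6, where the groups overlapped (log2 fold change -0.05 ± 0.14 (SE), edgeR adjusted p = 0.842). MITF, the family member that specifies melanocytes, did not pass in either comparison: its log2 fold changes were 0.11 ± 0.34 after siCHD4 and -0.12 ± 0.16 after siCHD3 (SE, edgeR adjusted p = 0.884 and 0.653).

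Of the 11 proteases, 2 passed after siCHD4, 4 after siCHD3 and 3 in the difference between them. Counts by role, here and below, compare with 7.13%, 20.3% and 14% of all genes tested in these 3 comparisons. CTSK encodes cathepsin K, a cysteine protease able to cut native collagen, known for bone resorption by osteoclasts. The gene (chr1:150767356-150782053, minus strand) had 2.72, 2.26 and 2.31 CPM in the siCHD4 libraries, against 0.655, 0.593 and 0.654 CPM in siCtrl replicates 1 to 3. Every siCHD4 library lay above every siCtrl library (log2 fold change 1.94 ± 0.22 (SE), edgeR adjusted p = 0.00323). Its level was the lowest of all members, resting on 194 to 248 reads in a siCHD4 library and 24 to 62 in a siCtrl library. After CHD3 silencing CTSK had 1.48, 1.32 and 1.1 CPM in the siCHD3 libraries, against 0.845, 0.714 and 0.867 CPM in siCtrl replicates 4 to 6. The groups did not overlap, but the gene did not pass (log2 fold change 0.69 ± 0.28 (SE), edgeR adjusted p = 0.0995). In the fit over 12 libraries CTSK did pass after siCHD3 (edgeR adjusted p = 0.0498). The difference between the responses of CTSK was 1.26 ± 0.29 (SE, edgeR interaction, adjusted p = 0.0116). Its call after siCHD4 held without any 1 library and under each alternative setting run for single genes, with log2 fold changes of 1.87 to 1.99 among the fits that left out a library.

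CTSZ encodes cathepsin Z, a carboxypeptidase of the same family, and was number 5 in level per kb in siCtrl replicates 1 to 3. The gene (chr20:57560741-57583293, minus strand) had 1139, 1111 and 1082 CPM in the siCHD4 libraries, against 534, 509 and 528 CPM in siCtrl replicates 1 to 3. The groups were widely separated, and CTSZ averaged 1111 ± 28.5 CPM in siCHD4 cells and 523 ± 12.8 CPM in siCtrl cells (SD, n = 3 each) (log2 fold change 1.09 ± 0.16 (SE), edgeR adjusted p = 0.00877). It did not pass without siCtrl replicate 2 or any 1 siCHD4 library (edgeR adjusted p 0.0559 to 0.0691), while its log2 fold change stayed at 1.06 to 1.11 in every fit that left out a library. After CHD3 silencing CTSZ had 724, 733 and 572 CPM in the siCHD3 libraries, against 469.6, 506 and 515 CPM in siCtrl replicates 4 to 6. All siCHD3 values were higher than all siCtrl values (log2 fold change 0.45 ± 0.14 (SE), edgeR adjusted p = 0.0364), and the call was lost without siCtrl replicate 4 or 5 or siCHD3 replicate 1 or 2 (edgeR adjusted p 0.0662 to 0.165). The difference between the responses of CTSZ was 0.65 ± 0.18 (SE, edgeR interaction, adjusted p = 0.0298), and among the fits that left out 1 library it passed only without siCtrl replicate 1, 3 or 4. NELFCD, on the opposite strand, shares 31.7% of the exon bases of CTSZ, and its log2 fold changes were -0.41 after siCHD4 (edgeR adjusted p = 0.303) and -0.02 after siCHD3 (edgeR adjusted p = 0.92).

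CTSS encodes cathepsin S, which cuts the invariant chain of MHC class II molecules in antigen-presenting cells. It lies beside CTSK on chromosome 1 (chr1:150702555-150738433, minus strand) and was likewise among the lowest members. After CHD3 silencing CTSS had 6.14, 4.99 and 3.93 CPM in the siCHD3 libraries, against 2.15, 1.75 and 1.96 CPM in siCtrl replicates 4 to 6. Even the lowest siCHD3 library was above the highest siCtrl library (log2 fold change 1.36 ± 0.23 (SE), edgeR adjusted p = 0.0016), on 211 to 265 reads in a siCHD3 library and 77 to 91 in a siCtrl library. The call of CTSS held without any 1 library. After CHD4 silencing CTSS had 2.74, 2.04 and 2.32 CPM in the siCHD4 libraries, against 2.37, 1.40 and 1.45 CPM in siCtrl replicates 1 to 3, where the groups overlapped (log2 fold change 0.44 ± 0.28 (SE), edgeR adjusted p = 0.41). Of the 2 neighbouring cathepsin genes, CTSK thus passed after siCHD4 and CTSS after siCHD3, but the difference between the responses of CTSS was -0.91 ± 0.34 (SE, edgeR interaction, adjusted p = 0.103) and did not pass.

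CTSB, the most abundant member per kb, was lower than siCtrl in every siCHD4 library and higher in every siCHD3 library. The gene (chr8:11700033-11727042, minus strand) had 1435, 1395 and 1394 CPM in the siCHD4 libraries, against 2088, 1923 and 2326 CPM in siCtrl replicates 1 to 3. All siCHD4 values were lower, and the test was not passed with all libraries (log2 fold change -0.58 ± 0.17 (SE), edgeR adjusted p = 0.0849). Without siCtrl replicate 3 the change in CTSB was -0.49 ± 0.12 (SE, edgeR adjusted p = 0.00794), and it also passed in the DESeq2 Wald test (adjusted p = 0.0135) and the fit over 12 libraries (edgeR adjusted p = 0.0111). After CHD3 silencing CTSB had 1805, 1930 and 1488 CPM in the siCHD3 libraries, against 1133, 1091 and 1205 CPM in siCtrl replicates 4 to 6. Here all siCHD3 values were higher, and CTSB averaged 1741 ± 228 CPM in siCHD3 cells and 1143 ± 58.0 CPM in siCtrl cells (SD, n = 3 each) (log2 fold change 0.61 ± 0.14 (SE), edgeR adjusted p = 0.00907). The difference between its responses, -1.18 ± 0.18 (SE, edgeR interaction, adjusted p = 0.00131), had the smallest adjusted p of all members and was past the threshold without any 1 library.

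CTSC encodes dipeptidyl peptidase I, which activates serine proteases of granules. After CHD3 silencing the gene (chr11:87998237-88092852, minus strand) had 232, 224 and 230.1 CPM in the siCHD3 libraries, against 363, 284 and 294 CPM in siCtrl replicates 4 to 6. The siCHD3 libraries were lower throughout (log2 fold change -0.46 ± 0.13 (SE), edgeR adjusted p = 0.0293). That call was lost without siCtrl replicate 4, which held the highest CTSC value, and without any 1 siCHD3 library (edgeR adjusted p 0.075 to 0.106), as well as in the fit over 12 libraries (edgeR adjusted p = 0.125) and with no filter on low counts (edgeR adjusted p = 0.054). After CHD4 silencing CTSC had 266, 249 and 247 CPM in the siCHD4 libraries, against 281, 216 and 175 CPM in siCtrl replicates 1 to 3, where siCtrl spread on both sides of siCHD4 (log2 fold change 0.18 ± 0.22 (SE), edgeR adjusted p = 0.693). The other 6 proteases (CTSA, CTSD, CTSF, CTSH, CTSL and TPP1) did not pass in the edgeR test of either table. CTSL, cathepsin L, was higher in all libraries of both, at log2 fold changes of 0.54 after siCHD4 (edgeR adjusted p = 0.138) and 0.36 after siCHD3 (edgeR adjusted p = 0.0641). After siCHD4 it did pass by DESeq2 (adjusted p = 0.0283) and in the fit over 12 libraries (edgeR adjusted p = 0.0205). TPP1, tripeptidyl peptidase, was lower in all siCHD4 libraries at -0.60 (edgeR adjusted p = 0.151), and passed in the fit over 12 libraries (edgeR adjusted p = 0.0283). The counts of CTSA and CTSD are uncertain, since over 20% of their exon bases are shared with other genes.

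**Figure D4:**
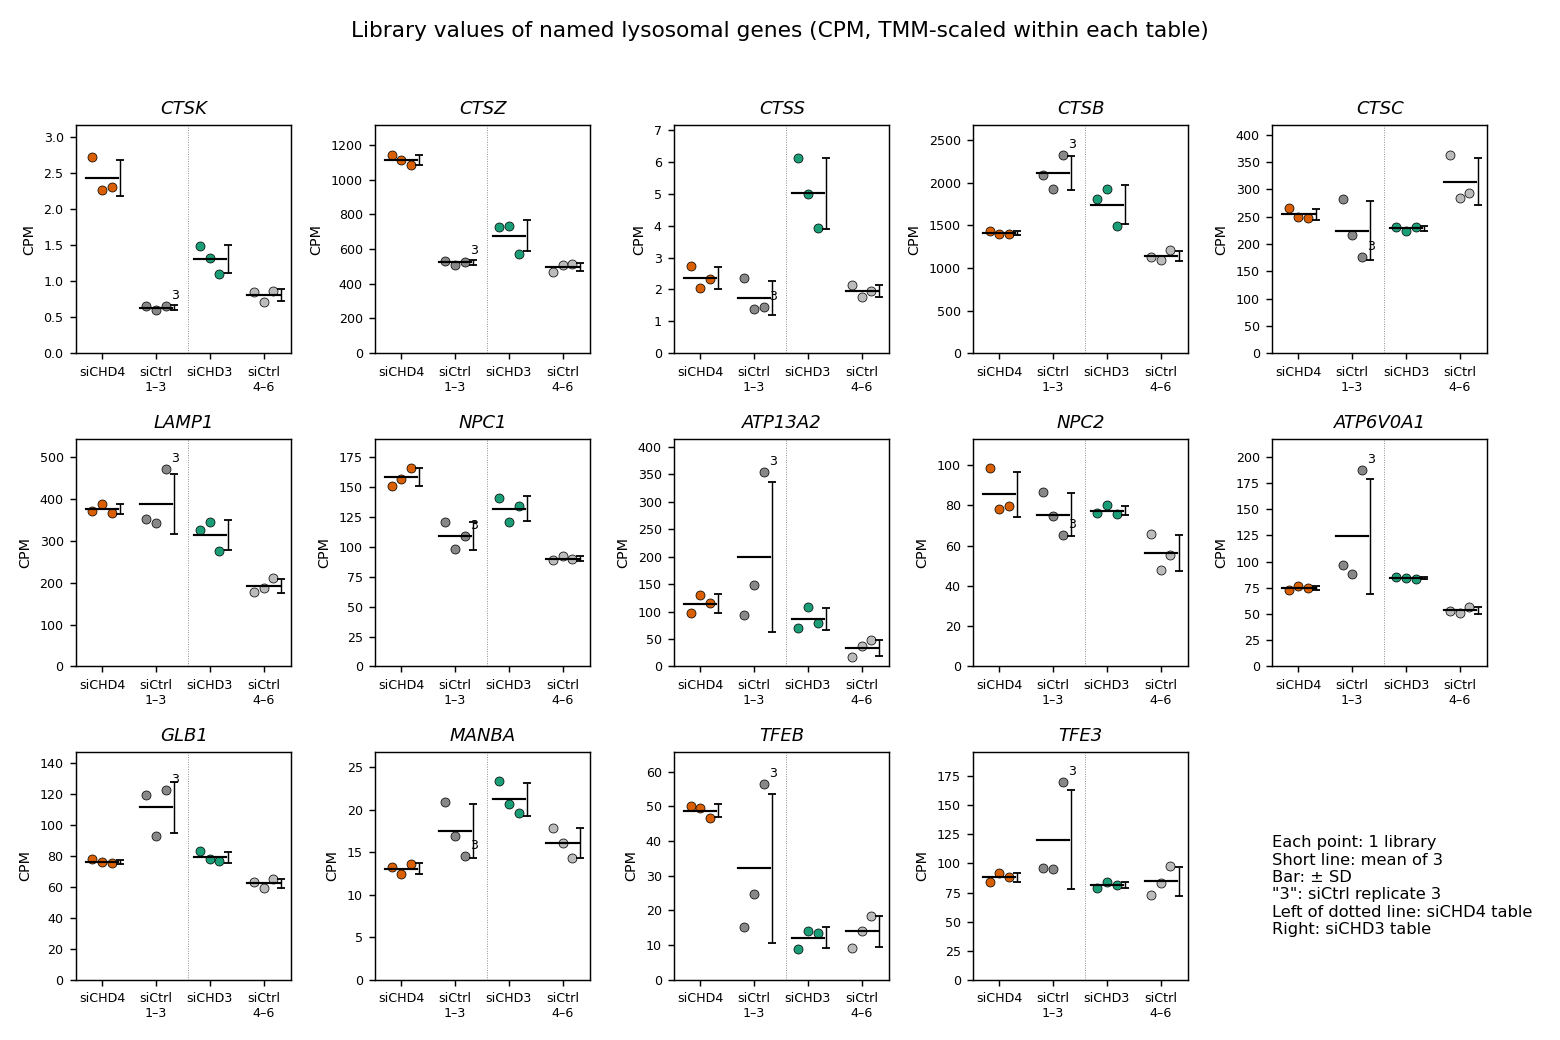
TMM-scaled CPM of 14 lysosomal genes in each library, for siCHD4 and siCtrl replicates 1 to 3 (left of the dotted line) and siCHD3 and siCtrl replicates 4 to 6 (right), with points for libraries, short lines for the mean of 3 and bars for ± SD; the point marked 3 is siCtrl replicate 3. The siCHD4 libraries stand above siCtrl for CTSK and CTSZ, and siCtrl replicate 3 is far above the other siCtrl libraries for ATP13A2, ATP6V0A1, TFEB and TFE3.

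Of the 7 membrane proteins and channels, none passed in the edgeR test of the siCHD4 table (2 at an unadjusted p under 0.05, and 1, NPC1, both by DESeq2 and in the fit over 12 libraries), and 3 rose after siCHD3. LAMP1 is a heavily glycosylated protein that lines the lysosomal membrane. After CHD3 silencing the gene (chr13:113951554-113977987, plus strand) had 327, 344 and 275 CPM in the siCHD3 libraries, against 178, 187 and 212 CPM in siCtrl replicates 4 to 6. The siCHD3 libraries were all higher (log2 fold change 0.71 ± 0.14 (SE), edgeR adjusted p = 0.00308), and the call held without any 1 library. After CHD4 silencing LAMP1 had 373, 389.5 and 368 CPM in the siCHD4 libraries, against 352, 343 and 472 CPM in siCtrl replicates 1 to 3, with siCHD4 inside the siCtrl range (log2 fold change -0.05 ± 0.20 (SE), edgeR adjusted p = 0.918). For LAMP1 the responses differed by -0.74 ± 0.21 (SE, edgeR interaction, adjusted p = 0.0359), a call that was lost in 7 of the 12 fits that left out a library. Its companion LAMP2 overlapped between groups in both comparisons, with log2 fold changes of 0.54 after siCHD4 and -0.04 after siCHD3 (edgeR adjusted p = 0.414 and 0.87), and without siCtrl replicate 3 the siCHD4 value of LAMP2 was 0.25 (edgeR adjusted p = 0.213).

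ATP13A2 is a lysosomal P-type ATPase that exports polyamines. The gene (chr1:17312453-17338423, minus strand) had 70.2, 108 and 79.4 CPM in the siCHD3 libraries, against 18.1, 36.7 and 47.6 CPM in siCtrl replicates 4 to 6. All siCHD3 values were above all siCtrl values, and ATP13A2 averaged 86.0 ± 19.9 CPM in siCHD3 cells and 34.1 ± 14.9 CPM in siCtrl cells (SD, n = 3 each) (log2 fold change 1.33 ± 0.32 (SE), edgeR adjusted p = 0.0198). The call was lost without siCtrl replicate 5 or siCHD3 replicate 3 (edgeR adjusted p = 0.0624 and 0.0695) and in the fit over 12 libraries (edgeR adjusted p = 0.0647). After CHD4 silencing ATP13A2 had 96.9, 130.5 and 116 CPM in the siCHD4 libraries, against 94.3, 148 and 354 CPM in siCtrl replicates 1 to 3. There siCtrl replicate 3 alone lay far above the rest (log2 fold change -0.80 ± 0.45 (SE), edgeR adjusted p = 0.358), and without it the change was -0.07 ± 0.21 (SE, edgeR adjusted p = 0.835). The difference between the responses, -2.11 ± 0.60 (SE, edgeR interaction, adjusted p = 0.0345), was the largest in size among the members, but without siCtrl replicate 3 it was -1.38 and did not pass (edgeR adjusted p = 0.0653). Among the other fits that left out 1 library, it passed only without siCtrl replicate 1, 2 or 6 or siCHD3 replicate 1.

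NPC1 and NPC2 hand cholesterol out of the lysosome, NPC1 in the membrane and NPC2 in the lumen. After CHD3 silencing NPC1 (chr18:21086148-21166470, minus strand) had 141, 121 and 134 CPM in the siCHD3 libraries, against 88.7, 92.3 and 89.5 CPM in siCtrl replicates 4 to 6. The siCHD3 libraries were all higher (log2 fold change 0.55 ± 0.13 (SE), edgeR adjusted p = 0.00946), though not past the threshold without siCHD3 replicate 1 or 3 (edgeR adjusted p = 0.068 and 0.0545). After CHD4 silencing NPC1 had 151, 157 and 166 CPM in the siCHD4 libraries, against 121, 97.9 and 109 CPM in siCtrl replicates 1 to 3, again without overlap (log2 fold change 0.53 ± 0.19 (SE), edgeR adjusted p = 0.144), and without siCtrl replicate 3 its change was 0.55 ± 0.13 (SE, edgeR adjusted p = 0.00677). NPC2 (chr14:74942895-74960880, minus strand) had 76.2, 79.9 and 75.7 CPM in the siCHD3 libraries, against 65.8, 47.9 and 55.1 CPM in siCtrl replicates 4 to 6. Its siCHD3 values were all higher (log2 fold change 0.46 ± 0.15 (SE), edgeR adjusted p = 0.0436), but the call held only without siCtrl replicate 4 among the fits that left out a library (edgeR adjusted p 0.0767 to 0.181 in the others), and it was also lost in the fit over 12 libraries (edgeR adjusted p = 0.11). NPC2 had 98.4, 78.3 and 79.8 CPM in the siCHD4 libraries, against 86.6, 74.4 and 65.1 CPM in siCtrl replicates 1 to 3, where the groups overlapped (log2 fold change 0.18 ± 0.21 (SE), edgeR adjusted p = 0.672).

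CD63 had 1311, 1156 and 1135 CPM in the siCHD4 libraries, against 1028, 899.5 and 1625 CPM in siCtrl replicates 1 to 3, where siCtrl replicate 3 was above every siCHD4 library (log2 fold change 0.02 ± 0.25 (SE), edgeR adjusted p = 0.973). CD63 had 788, 881 and 911 CPM in the siCHD3 libraries, against 921, 731 and 937 CPM in siCtrl replicates 4 to 6, with overlapping groups (log2 fold change -0.01 ± 0.14 (SE), edgeR adjusted p = 0.986). CLN3, a lysosomal membrane protein lost in a childhood form of neuronal ceroid lipofuscinosis, had the most negative change among the 39 after siCHD4. It had 17.1, 18.2 and 16.3 CPM in the siCHD4 libraries, against 19.7, 26.6 and 61.7 CPM in siCtrl replicates 1 to 3, and all siCHD4 values were lower (log2 fold change -1.06 ± 0.41 (SE), edgeR adjusted p = 0.182). Of its exon bases, 25.3% are shared with a second annotated gene. Without siCtrl replicate 3 the change in CLN3 was -0.41 ± 0.15 (SE, edgeR adjusted p = 0.0498). CLN3 had 20.6, 30.4 and 19.7 CPM in the siCHD3 libraries, against 16.1, 21.3 and 29.2 CPM in siCtrl replicates 4 to 6, and the groups overlapped (log2 fold change 0.09 ± 0.24 (SE), edgeR adjusted p = 0.84). The calcium channel MCOLN1 overlapped between groups in both comparisons, at log2 fold changes of -0.32 after siCHD4 and -0.42 after siCHD3 (edgeR adjusted p = 0.718 and 0.272). The sign of MCOLN1 after siCHD4 turned without siCtrl replicate 3, to 0.37 (edgeR adjusted p = 0.0916).

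None of the 6 glycosidases passed in the edgeR test of either table (1 at an unadjusted p under 0.05 after siCHD4 and 3 after siCHD3, none by DESeq2, and GLB1 after siCHD4 in the fit over 12 libraries, edgeR adjusted p = 0.0258), but the responses of GLB1 and MANBA differed. GLB1, the lysosomal beta-galactosidase (chr3:33038101-33138694, minus strand), had 77.8, 76.0 and 75.2 CPM in the siCHD4 libraries, against 119.5, 92.7 and 123 CPM in siCtrl replicates 1 to 3. Its siCHD4 values were all lower (log2 fold change -0.55 ± 0.20 (SE), edgeR adjusted p = 0.154), and without siCtrl replicate 3 its change was -0.46 ± 0.13 (SE, edgeR adjusted p = 0.0187). GLB1 had 83.3, 77.8 and 76.5 CPM in the siCHD3 libraries, against 63.0, 59.3 and 65.0 CPM in siCtrl replicates 4 to 6, all siCHD3 values being higher (log2 fold change 0.34 ± 0.13 (SE), edgeR adjusted p = 0.0809). Responses of GLB1 differed by -0.88 ± 0.20 (SE, edgeR interaction, adjusted p = 0.0116), a call that held without any 1 library. MANBA, beta-mannosidase (chr4:103551927-103682151, minus strand), had 13.2, 12.4 and 13.6 CPM in the siCHD4 libraries, against 20.9, 16.9 and 14.6 CPM in siCtrl replicates 1 to 3. All siCHD4 values were lower (log2 fold change -0.42 ± 0.21 (SE), edgeR adjusted p = 0.298), and without siCtrl replicate 3 the change in MANBA was -0.51 ± 0.14 (SE, edgeR adjusted p = 0.0117). MANBA had 23.4, 20.6 and 19.6 CPM in the siCHD3 libraries, against 17.9, 16.1 and 14.3 CPM in siCtrl replicates 4 to 6, where siCHD3 was higher (log2 fold change 0.40 ± 0.16 (SE), edgeR adjusted p = 0.0989). For MANBA the responses differed by -0.80 ± 0.24 (SE, edgeR interaction, adjusted p = 0.0456), and it passed in only 2 of the 12 fits that left out a library.

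GAA, acid alpha-glucosidase, whose promoter holds 2 full palindromes, had 13.0, 16.6 and 13.7 CPM in the siCHD4 libraries, against 10.2, 17.6 and 35.4 CPM in siCtrl replicates 1 to 3. The siCtrl libraries lay on both sides of siCHD4 (log2 fold change -0.54 ± 0.42 (SE), edgeR adjusted p = 0.507). GAA had 7.40, 13.4 and 8.31 CPM in the siCHD3 libraries, against 4.10, 7.85 and 9.49 CPM in siCtrl replicates 4 to 6, with overlap (log2 fold change 0.44 ± 0.32 (SE), edgeR adjusted p = 0.388). HEXA, the alpha subunit of beta-hexosaminidase, had 189.8, 159.9 and 172 CPM in the siCHD4 libraries, against 194, 158 and 188 CPM in siCtrl replicates 1 to 3, and the groups overlapped (log2 fold change -0.05 ± 0.19 (SE), edgeR adjusted p = 0.909). HEXA had 196, 187 and 169 CPM in the siCHD3 libraries, against 204, 183 and 191 CPM in siCtrl replicates 4 to 6, also with overlap (log2 fold change -0.07 ± 0.13 (SE), edgeR adjusted p = 0.755). Of the remaining glycosidases, NAGLU passed after siCHD4 only without siCtrl replicate 3 (0.65 ± 0.15 (SE, edgeR adjusted p = 0.0056)), and GLA did not pass in either comparison with all libraries.

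Among the 5 lipid hydrolases and their helpers, NPC2 alone passed, after siCHD3. No gene of this group passed after siCHD4 by edgeR or DESeq2, nor at an unadjusted p under 0.05. ASAH1, which splits ceramide, had 914, 922 and 888 CPM in the siCHD4 libraries, against 822, 642 and 376 CPM in siCtrl replicates 1 to 3. All siCHD4 values were higher, and siCtrl replicate 3 was the lowest (log2 fold change 0.57 ± 0.28 (SE), edgeR adjusted p = 0.298). Without that library the change in ASAH1 was 0.33 (edgeR adjusted p = 0.0824). ASAH1 had 1112, 964 and 1043 CPM in the siCHD3 libraries, against 1103, 997 and 828 CPM in siCtrl replicates 4 to 6, where the groups overlapped (log2 fold change 0.09 ± 0.14 (SE), edgeR adjusted p = 0.704). PSAP had 1858, 1788 and 1833 CPM in the siCHD4 libraries, against 1848, 1746 and 1989 CPM in siCtrl replicates 1 to 3, with siCHD4 inside the siCtrl range (log2 fold change -0.03 ± 0.16 (SE), edgeR adjusted p = 0.943). PSAP had 1688, 1742 and 1661 CPM in the siCHD3 libraries, against 1420, 1610 and 1660 CPM in siCtrl replicates 4 to 6, and the groups did not overlap by a narrow margin (log2 fold change 0.12 ± 0.13 (SE), edgeR adjusted p = 0.573). SMPD1, acid sphingomyelinase, and PPT1, which removes palmitate from proteins, did not pass in either comparison.

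Of the 8 V-ATPase subunits, none passed in the edgeR test of the siCHD4 table (2 at an unadjusted p under 0.05, none by DESeq2), and ATP6V0A1 alone passed after siCHD3. ATP6V0A1 is the a1 isoform of the proton-conducting V0 sector. After CHD3 silencing the gene (chr17:40610862-40674600, plus strand) had 85.4, 84.7 and 83.2 CPM in the siCHD3 libraries, against 53.0, 50.7 and 56.7 CPM in siCtrl replicates 4 to 6. The siCHD3 libraries were tightly grouped above siCtrl (log2 fold change 0.66 ± 0.13 (SE), edgeR adjusted p = 0.00356), and the call held without any 1 library but not in the fit over 12 libraries (edgeR adjusted p = 0.0867). After CHD4 silencing ATP6V0A1 had 73.2, 76.8 and 75.3 CPM in the siCHD4 libraries, against 97.0, 87.8 and 187 CPM in siCtrl replicates 1 to 3. All siCHD4 values were lower, with siCtrl replicate 3 far above the rest (log2 fold change -0.72 ± 0.31 (SE), edgeR adjusted p = 0.224), and without that library the change was -0.28 ± 0.12 (SE, edgeR adjusted p = 0.0972). The difference between its responses was -1.36 ± 0.33 (SE, edgeR interaction, adjusted p = 0.0145), and it was lost without siCHD4 replicate 1 (edgeR adjusted p = 0.0543). Without siCtrl replicate 3 this difference was -0.92 ± 0.15 (SE, edgeR adjusted p = 0.00053).

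ATP6V1B2, the B2 subunit of the catalytic V1 sector, was the most abundant pump gene per kb in both siCtrl sets. It had 382, 376 and 372 CPM in the siCHD4 libraries, against 364, 269 and 343 CPM in siCtrl replicates 1 to 3, slightly higher in every siCHD4 library (log2 fold change 0.21 ± 0.19 (SE), edgeR adjusted p = 0.573). ATP6V1B2 had 402, 366 and 381 CPM in the siCHD3 libraries, against 473, 405 and 486 CPM in siCtrl replicates 4 to 6, lower in every siCHD3 library (log2 fold change -0.25 ± 0.13 (SE), edgeR adjusted p = 0.199). ATP6V1C1, the C1 subunit that joins the sectors, had the most positive pump value after siCHD4. It had 203, 212 and 216 CPM in the siCHD4 libraries, against 166, 133 and 79.4 CPM in siCtrl replicates 1 to 3, and the groups did not overlap (log2 fold change 0.74 ± 0.28 (SE), edgeR adjusted p = 0.172). Without siCtrl replicate 3, which held the lowest value, the change in ATP6V1C1 was 0.52 ± 0.13 (SE, edgeR adjusted p = 0.0094). ATP6V1C1 had 250.2, 199.9 and 253 CPM in the siCHD3 libraries, against 293, 290.3 and 232 CPM in siCtrl replicates 4 to 6, with overlap (log2 fold change -0.21 ± 0.15 (SE), edgeR adjusted p = 0.336). The remaining subunits ATP6V0C, ATP6V0D1, ATP6V1A, ATP6V1H and ATP6AP1 did not pass in either comparison with all libraries, and the summed level of the 8 genes overlapped between groups in both, at 1634 to 1681 CPM in siCHD4 against 1236 to 1824 CPM in siCtrl and 1380 to 1487 CPM in siCHD3 against 1481 to 1614 CPM in siCtrl. The siCHD4 overlap came from siCtrl replicate 3 alone, since the sums were 1414 and 1236 CPM in siCtrl replicates 1 and 2.

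Of the fits that left out 1 library, the one without siCtrl replicate 3 moved the siCHD4 count most. Then 14 members passed (35.9%), against 29.7% of the 17571 genes tested, 9 higher (23.1%, against 15.7%) and 5 lower (12.8%, against 14%). Besides CTSK, CTSZ, TFEB, NPC1, NAGLU and ATP6V1C1, the genes that rose were CTSL at 0.51 ± 0.14 (SE, edgeR adjusted p = 0.0122), ATP6V0D1 at 0.50 ± 0.13 (SE, edgeR adjusted p = 0.00871) and ATP6AP1 at 0.57 ± 0.12 (SE, edgeR adjusted p = 0.0029). Besides CTSB, GLB1, MANBA and CLN3, TPP1 fell, at -0.40 ± 0.13 (SE, edgeR adjusted p = 0.0285). The sign turned for 10 members, all positive without that library: LAMP1 (0.13), CTSA (0.09), CTSD (0.17), CTSF (0.14), GAA (0.07), HEXA (0.00), PSAP (0.04), MCOLN1 (0.37), ATP6V0C (1.08) and ATP6V0D1, of which ATP6V0D1 alone passed. Turned signs were not counted over all genes tested. With all libraries, siCtrl replicate 3 was the highest siCtrl library of its table for 22 of the 39 genes (56.4%), against 44.1% of all genes tested, and the lowest for 9 (23.1%), against 45.6%. The part of this library's lower depth and its composition in these counts was not tested.

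**Figure D5:**
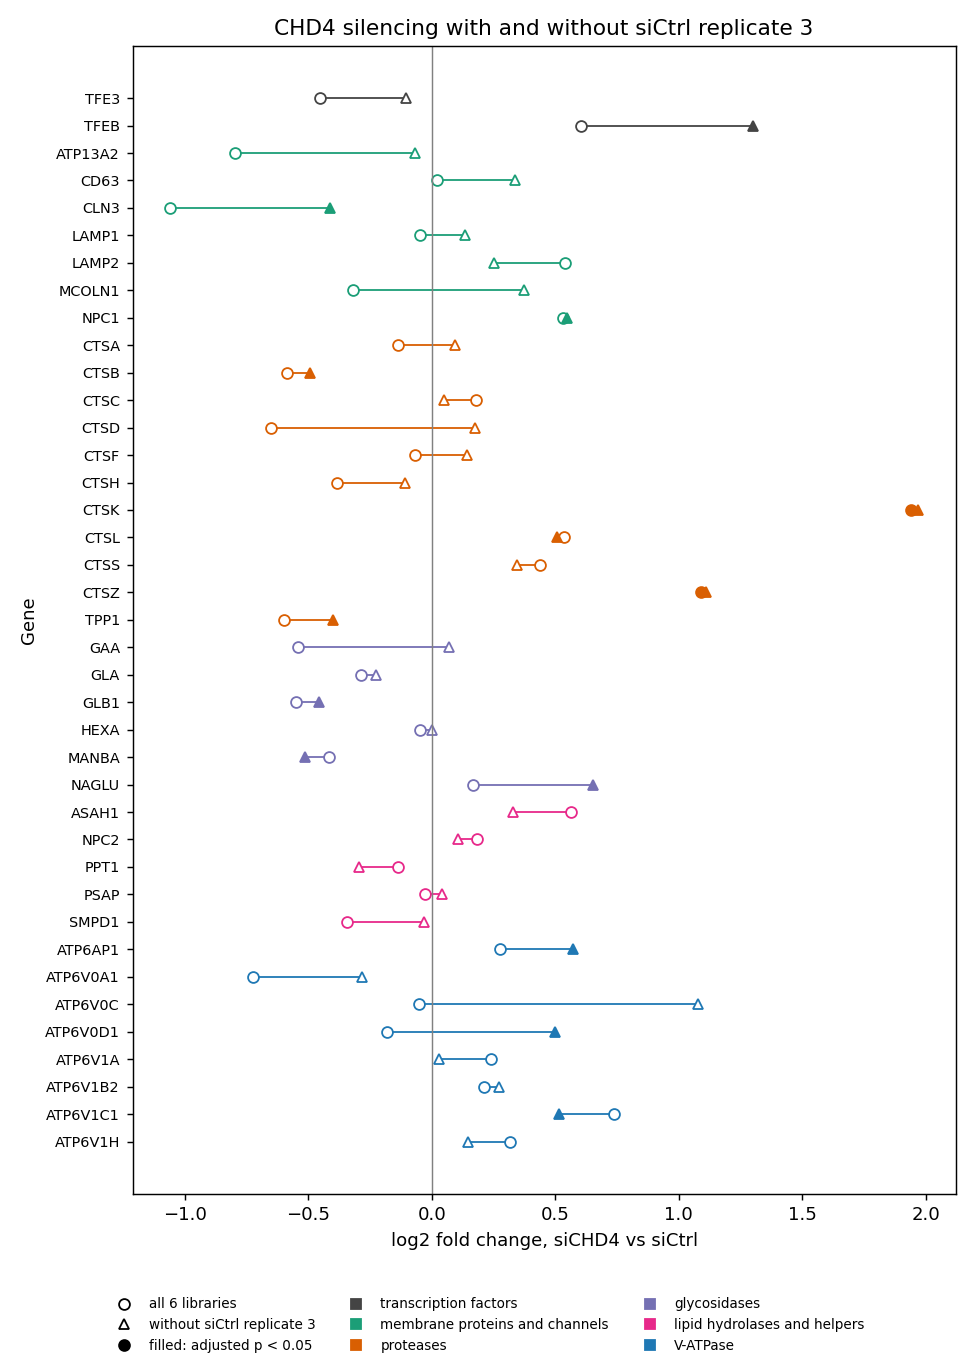
Log2 fold change of the 39 lysosomal genes after siCHD4 with all 6 libraries (circles) and without siCtrl replicate 3 (triangles), joined by a line per gene and grouped by role, with filled symbols at an edgeR adjusted p under 0.05. The number of filled symbols is 2 with all libraries and 14 without siCtrl replicate 3, and TFEB moves to 1.30, against 0.60 with all libraries.

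Presence of the CACGTG core was set beside the calls as a description. Of the 7 members with a RefSeq promoter that passed in either comparison, 1 (LAMP1) held the core, as did 8 of the 19 that passed in neither. After siCHD4 the median log2 fold change was -0.18 for the 9 genes with the core and -0.14 for the 17 without it, and after siCHD3 it was 0.00 and 0.17. Without siCtrl replicate 3 the siCHD4 medians were 0.14 and -0.03.

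A wider list of 73 other lysosomal, V-ATPase and nutrient-sensing genes was counted beside the 39. After siCHD4, 7 of the 70 tested passed (10%), against 7.13% of all genes, 3 higher and 4 lower. HGSNAT, an acetyltransferase of heparan sulfate breakdown, fell, at -1.34 ± 0.21 (SE, edgeR adjusted p = 0.00908), and GM2A, the activator of GM2 ganglioside breakdown, rose, at 1.02 ± 0.19 (SE, edgeR adjusted p = 0.0191). The d2 isoform of the V0 sector, ATP6V0D2, rose as well, at 2.57 ± 0.41 (SE, edgeR adjusted p = 0.00996), on 104 reads in the siCHD4 libraries and 13 in siCtrl, and the E2 isoform ATP6V1E2 fell, at -1.27 ± 0.25 (SE, edgeR adjusted p = 0.0229). After siCHD3, 13 of the 69 tested passed (18.8%), against 20.3%, 11 higher and 2 lower. Among those with the smallest adjusted p were FUCA1, a fucosidase, at 1.41 ± 0.22 (SE, edgeR adjusted p = 0.00155), the sorting receptor SORT1 at 0.73 ± 0.13 (SE, edgeR adjusted p = 0.0022) and GM2A at 0.65 ± 0.13 (SE, edgeR adjusted p = 0.00423).

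Responses differed for 8 of 71 wider genes (11.3%), against 14% of all genes, 2 higher and 6 lower after siCHD4. The 4 with the smallest adjusted p were HGSNAT at -2.01 ± 0.22 (SE, edgeR interaction, adjusted p = 0.000158), the sulfatase GALNS at -1.67 ± 0.29 (SE, edgeR interaction, adjusted p = 0.0026), FUCA1 at -1.86 ± 0.34 (SE, edgeR interaction, adjusted p = 0.00353) and the V1 subunit isoform ATP6V1C2 at 2.70 ± 0.66 (SE, edgeR interaction, adjusted p = 0.0163).

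Markers of cell types other than melanocytes were low. After siCHD4 the summed level of the macrophage markers was 2.12 to 2.48 CPM, against 0.993 to 1.34 CPM in siCtrl, with 2 of the 4 tested genes higher (CSF1R and ITGAM), while PTPRC, the pan-leukocyte marker, had 4 reads in the siCHD4 libraries and 3 in siCtrl. After siCHD3 it was 1.30 to 2.92 CPM, against 1.87 to 2.28 CPM in siCtrl. The fibroblast markers summed to 8.88 to 9.45 CPM after siCHD4, against 7.14 to 10.2 CPM, with PDGFRB the 1 gene of 5 tested that rose, and to 18.9 to 31.5 CPM after siCHD3, against 13 to 14.2 CPM, where LUM was the 1 gene of 4 that rose. The keratinocyte markers, nearly all KRT10, summed to 11.7 to 16.7 CPM after siCHD4, against 15.1 to 22.9 CPM, and to 27.5 to 35.6 CPM after siCHD3, against 26.9 to 44.3 CPM. The 7 melanocyte lineage markers summed to 20240 to 21430 CPM after siCHD4, against 15090 to 19900 CPM, and to 13020 to 17250 CPM after siCHD3, against 13780 to 14430 CPM. CTSK and CTSS are also expressed by macrophages and CTSK by fibroblasts, and the part of these markers in their changes was not tested. The summed level of the 39 members was 11900 to 12240 CPM after siCHD4, against 10580 to 13950 CPM in siCtrl, and 10500 to 11300 CPM after siCHD3, against 9619 to 10200 CPM in siCtrl. The groups separated after siCHD3, and after siCHD4 they overlapped through siCtrl replicate 3 alone, since siCtrl replicates 1 and 2 had 11590 and 10580 CPM.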

How the data were processed

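RNA-seq was measured in 12 libraries of 501Mel cells. Per the labels, 6 ng of RNA entered a linear cDNA amplification and the libraries took 8 PCR cycles. Tools listed by the submitters are TopHat2 2.0.10, HTSeq, DESeq2, CASAVA 1.8.2, cutadapt 1.10 and Bowtie2 (2.1.0 and 2.2.8), with hg19 as the build. Neither the annotation release nor whether counting used strand is given in the sources used here. Every expression test and CPM value rests on the raw counts of reads per gene that the authors deposited. The authors also deposited a normalised signal, with and without division by gene length. The ratio of these signals gave the gene lengths used for levels per kb, and the signals were not used otherwise. The authors' log2 fold changes and p-values of their own comparisons were not used. The siCHD3 table has 5 rows that name no gene and hold no counts.

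The members, the wider list and the tests were chosen with earlier results of these data known. Members were matched by symbol and Ensembl ID (CTSL is listed as CTSL1 in the siCHD4 table, and a second CLN3 ID was not used). Each silencing was tested against the siCtrl libraries of its own table with the edgeR 4.0.16 quasi-likelihood test (filterByExpr, TMM, limma 3.58.1, R 4.3.3), with Benjamini-Hochberg adjustment over all genes tested and a threshold of 0.05. The difference between responses was the interaction in 1 fit over 12 libraries. CPM are TMM-scaled within a table, and levels per kb use the gene lengths derived from the deposited signals of that table. Gene coordinates are those of GENCODE v44lift37 on GRCh37, and promoters those of RefSeq on GRCh38.p14.

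Library values were given for TFEB, TFE3, the members that passed in any comparison (at most 8 each), and in each role the member with the highest siCtrl level and those with the largest change. From the wider list at most 4 per comparison were named, and 1 gene that this rule picks after siCHD3 is not reported here. On simulated data for 16698 genes of the siCHD4 comparison, 4% of genes changed by 2-fold and 76% of those changed by 4-fold were recovered; for 15810 genes of the siCHD3 comparison it was 56% and 88%, and for 16893 genes of the difference 4% and 52%. The simulated data held fewer changed genes than were called in the real data. Alternatives were other scaling, no filter, DESeq2 1.42.0, 1 fit over all libraries, a replicate block, and leaving out each library in turn.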

Additional observations from a re-analysis of the deposited data

Results flagged for a closer look

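The responses of 8 lysosomal genes differed between the silencings, by a test of the difference itself (log2 fold change after siCHD4 minus that after siCHD3, edgeR interaction over 12 libraries, adjusted p under 0.05 over all genes). The difference was -1.18 for CTSB, -0.88 for GLB1, -0.80 for MANBA, -1.36 for ATP6V0A1, -2.11 for ATP13A2 and -0.74 for LAMP1, all with the lower response after siCHD4. It was 1.26 for CTSK and 0.65 for CTSZ, with the higher response after siCHD4. The calls of CTSB, CTSK and GLB1 held without any 1 library. The tables hold different siCtrl libraries, so the set of libraries and the silenced gene cannot be told apart beyond what each table's own siCtrl corrects. CHD4 was also higher than siCtrl in every library after siCHD3, and CHD3, narrowly, in every library after siCHD4. No test of either rise is given, and the part of these rises in the differences was not tested.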

How the results depend on the processing

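The siCHD4 count of 2 members became 7 in the fit over 12 libraries and 5 by DESeq2, and ran from 1 to 14 when 1 library was left out. The siCHD3 count of 9 ran from 5 to 9, and the count of 8 for the difference ran from 3 to 12 and was 5 with no filter on low counts. The share of all genes called also moved between these fits, so the counts cannot be read as particular to the members. The cause was not tested. With the replicate number as a block the siCHD4 count was 2, the same genes, but the share of all genes called was 3.54%. Whether equal numbers pair the libraries is not stated. Same-numbered deviations from the group mean correlated at 0.0033, 0.0933 and -0.194, and differently numbered ones at -0.242 to 0.222. With 3 libraries a group, these values cannot decide the pairing. No paired analysis was run for siCHD3 or the difference, because the labels number those siCtrl libraries 4 to 6. The study's reporting summary lists them as siC-1 to siC-3 and states no pairing. Of the genes with library values, those named next changed sign and passed in no fit of that comparison. With no filter these were PSAP after siCHD4 (0.0012) and CD63 after siCHD3 (0.035). When 1 library was left out, the range after siCHD4 was -0.144 to 0.336 for CD63, -0.865 to 0.068 for GAA, -0.137 to 0.015 for HEXA, -0.129 to 0.134 for LAMP1 and -0.072 to 0.041 for PSAP. After siCHD3 it was -0.0098 to 0.169 for ASAH1, -0.105 to 0.060 for CD63, -0.12 to 0.33 for CLN3, -0.167 to 0.069 for TFE3 and -0.435 to 0.056 for TFEB. The siCHD3 median of 0.09 was 0.17 without siCtrl replicate 6. In the simulated data most changes of 2-fold or less were missed after siCHD4 and in the difference, with 4% of 2-fold changes recovered in each. After siCHD3, 6% of 1.5-fold and 56% of 2-fold changes were recovered. The simulated data held fewer changed genes than were called here, which makes the adjusted threshold stricter. Their spread was taken from all libraries, siCtrl replicate 3 included. The shares recovered therefore need not hold for the real comparisons.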
